A study of Mus musculus with 18 samples.

Results

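The genes described here are 7 integrin chains: *Itgb1*, *Itgb7*, *Itga4*, *Itgal*, *Itgb2*, *Itgam*, and *Itgax*. Among them are chains that lymphocytes use to leave the blood and settle in lymphoid and gut tissue. The 7 genes were taken by symbol from a table of 55491 genes, and all were found and passed the filter on low counts in every comparison. The table holds bulk RNA-Seq of B cells taken from 2 sites, spleen and Peyer's patches, in female BALB/cJ mice that were 10–12 weeks old per the labels. All mice had been sensitized i.p. with 20 μg of the egg allergen ovalbumin (OVA) and 1 mg alum on days 0 and 14, so the PBS groups are allergic controls and no unsensitized mice were compared. Mice then received 100 μL PBS, 100 μg soluble OVA, or 2.5 mg OVA NPs (biodegradable polymer particles that encapsulate OVA) i.v. on days 28 and 42, and B cells were collected on day 44. There were 3 libraries for each of the 6 combinations of tissue and treatment, or 18 in all, and the labels call them biological replicates without tying spleen and Peyer's patch libraries to the same mouse. B cells were enriched by magnetic negative selection, which leaves behind any cell the antibody mixture does not bind. Peyer's patches were digested with enzymes and spleens were dissociated mechanically, so tissue and dissociation cannot be told apart. Per the methods, mice with low OVA-specific antibody titers after sensitization were left out.

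An integrin is a pair of one α chain and one β chain that spans the membrane, binds a ligand on another cell or in the matrix, and is switched to its active form from inside the cell. *Itga4* encodes α4, which pairs with β7 (*Itgb7*) to bind MAdCAM-1 on vessels of the gut and its lymphoid tissue, and with β1 (*Itgb1*) to bind VCAM-1 and fibronectin. *Itgb2* encodes β2, the shared partner of αL (*Itgal*, giving LFA-1, which binds ICAMs), αM (*Itgam*, CD11b, giving Mac-1), and αX (*Itgax*, CD11c). α4β7 is the classical gut-homing integrin of lymphocytes, LFA-1 holds lymphocytes to vessels and to partner cells, and CD11b and CD11c are best known on myeloid cells and are also carried by some B cell subsets.

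The libraries held between 14177253 and 30052297 counts, and 3 counts corresponded to 0.0998 to 0.212 CPM (the count scaled to a common library size by TMM over the 18 libraries), a limit that covers counting error only. Markers of B cells were abundant in every library, with a summed level over 10 genes of 6382 to 11015 CPM, and 13 T cell markers summed to 68.4 to 195.9 CPM. The 20 monocyte and macrophage markers summed to 142.3 to 578.5 CPM and 12 dendritic cell markers to 41.2 to 95.0 CPM, so RNA of myeloid cells was present in all libraries. The 13 markers of epithelium, stroma, and endothelium summed to 171.0–258.9 CPM in the spleen and 303.4–886.0 CPM in Peyer's patches. In the spleen comparisons, 5 of these 13 passed the filter on low counts. The list includes *Pecam1*, and the paper reports PECAM-1 signaling from B cells in the small intestine of OVA NP-treated mice. These sums therefore need not be RNA of other cells alone. Mitochondrial genes took 2.82% to 3.41% of the counts in the spleen and 4.97% to 9.80% in Peyer's patches, with 9.08% to 9.80% in the OVA NP group. A gene is said here to be called, or to have risen or fallen, when its adjusted p in edgeR (a count model fitted over all genes) was under 0.05 and its log2 fold change exceeded 0.25 in size. In bulk samples, fewer cells of a type and less RNA per cell cannot be told apart. Groups of 3 libraries often did not overlap. Against PBS in the spleen, this held for 36.9% of all tested genes with OVA NPs and 38.3% with soluble OVA. In Peyer's patches it held for 44.8% with soluble OVA against PBS and 48.3% with OVA NPs against soluble OVA.

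On GRCm38, *Itgb1* lies at chr8:128685654-128733200 on the plus strand, *Itgb7* at chr15:102215995-102231944 on the minus strand, *Itga4* at chr2:79255426-79333123 on the plus strand, and *Itgb2* at chr10:77530252-77565708 on the plus strand. The 3 α chains that pair with β2 lie on the plus strand of chromosome 7, *Itgal* at chr7:127296260-127335138, *Itgam* at chr7:128062640-128118491, and *Itgax* at chr7:128129547-128150657. *Itgam* and *Itgax* are neighbors, with 11056 bases and 0 other protein-coding genes between them. *Itga4* overlaps *Cerkl* on the opposite strand, which had at most 99 counts in a library, and *Itgam* overlaps *Gm49368* on its own strand, which had at most 19. The strand setting of the counting was not given in the sources used here, so reads in these overlaps are uncertain, although *Itga4* had at least 5422 counts in every library.

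RefSeq promoter sequences (GRCm38.p6), each covering 250 bases before the transcription start and 50 after it, were matched for 5 of the 7 genes. The sequences of *Itgb7*, which had the largest treatment difference among the 7 genes, and of the neighbors *Itgam* and *Itgax*, which differed in opposite directions between tissues, are shown 5′ to 3′ on the strand of the gene. Capitals mark GAGGAA, the core that the myeloid and B cell factor PU.1 binds, and TGTGGT, the core that RUNX factors bind. A match on the opposite strand reads TTCCTC or ACCACA.
*Itgb7*, chr15:102231886-102232185, minus strand: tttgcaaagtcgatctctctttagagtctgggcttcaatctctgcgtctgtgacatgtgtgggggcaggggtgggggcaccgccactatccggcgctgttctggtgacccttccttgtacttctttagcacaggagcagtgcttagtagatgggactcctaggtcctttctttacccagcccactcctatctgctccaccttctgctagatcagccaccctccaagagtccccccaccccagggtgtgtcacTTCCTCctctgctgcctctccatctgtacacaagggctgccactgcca
*Itgam*, chr7:128062390-128062689, plus strand: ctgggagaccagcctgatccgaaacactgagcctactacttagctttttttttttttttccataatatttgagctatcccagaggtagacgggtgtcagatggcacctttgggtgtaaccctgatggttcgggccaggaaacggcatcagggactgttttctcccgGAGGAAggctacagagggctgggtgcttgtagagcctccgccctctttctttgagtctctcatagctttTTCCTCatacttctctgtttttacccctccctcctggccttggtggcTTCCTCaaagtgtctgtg
*Itgax*, chr7:128129300-128129599, plus strand: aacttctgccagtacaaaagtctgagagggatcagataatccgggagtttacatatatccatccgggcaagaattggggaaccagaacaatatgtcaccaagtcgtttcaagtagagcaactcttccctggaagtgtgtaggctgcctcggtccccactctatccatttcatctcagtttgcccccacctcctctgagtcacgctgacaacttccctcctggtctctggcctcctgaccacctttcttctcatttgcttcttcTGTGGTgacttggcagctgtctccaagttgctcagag

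The *Itgam* window held GAGGAA 3 times, at -84 on the strand of the gene and at -15 and 33 on the other strand, counted from the transcription start to the first base of the match. The *Itgb7* window held it 1 time, at 3 on the other strand, and the *Itgb1* window 1 time, at -9 on the strand of the gene. *Itgax* held TGTGGT 1 time, at 14, and *Itga4* held it 1 time on the other strand, at -60. On either strand, GAGGAA was present in 28.3% and TGTGGT in 16.8% of the 32851 RefSeq promoter windows of 300 bases, so both are common sequences. These matches describe letters in a window and not binding.

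The 7 genes covered a wide range of levels. Per kilobase of annotated exon, *Itgb7* had the highest level in splenic B cells of PBS-treated mice, at 89.0 ± 4.40 CPM per kb (SD, n = 3), ahead of *Itgb2* at 52.3 ± 4.30. *Itga4* followed at 39.7 ± 1.20, *Itgal* at 35.3 ± 1.91, and *Itgb1* at 29.3 ± 0.74 CPM per kb. *Itgam* and *Itgax* were more than an order of magnitude below *Itgb2*, at 3.12 ± 1.08 and 1.49 ± 0.30 CPM per kb, with 249–462 and 147–194 counts in a library. In Peyer's patches of PBS-treated mice, *Itgb7* (63.3 ± 0.97) and *Itgb2* (61.4 ± 3.19) were the top 2, and *Itgax* (6.76 ± 1.20) stood above *Itgam* (1.13 ± 0.13). The exon length is the union of all annotated transcripts, so a gene with long alternative ends such as *Itga4* is placed low on this scale.

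**Figure D1:**
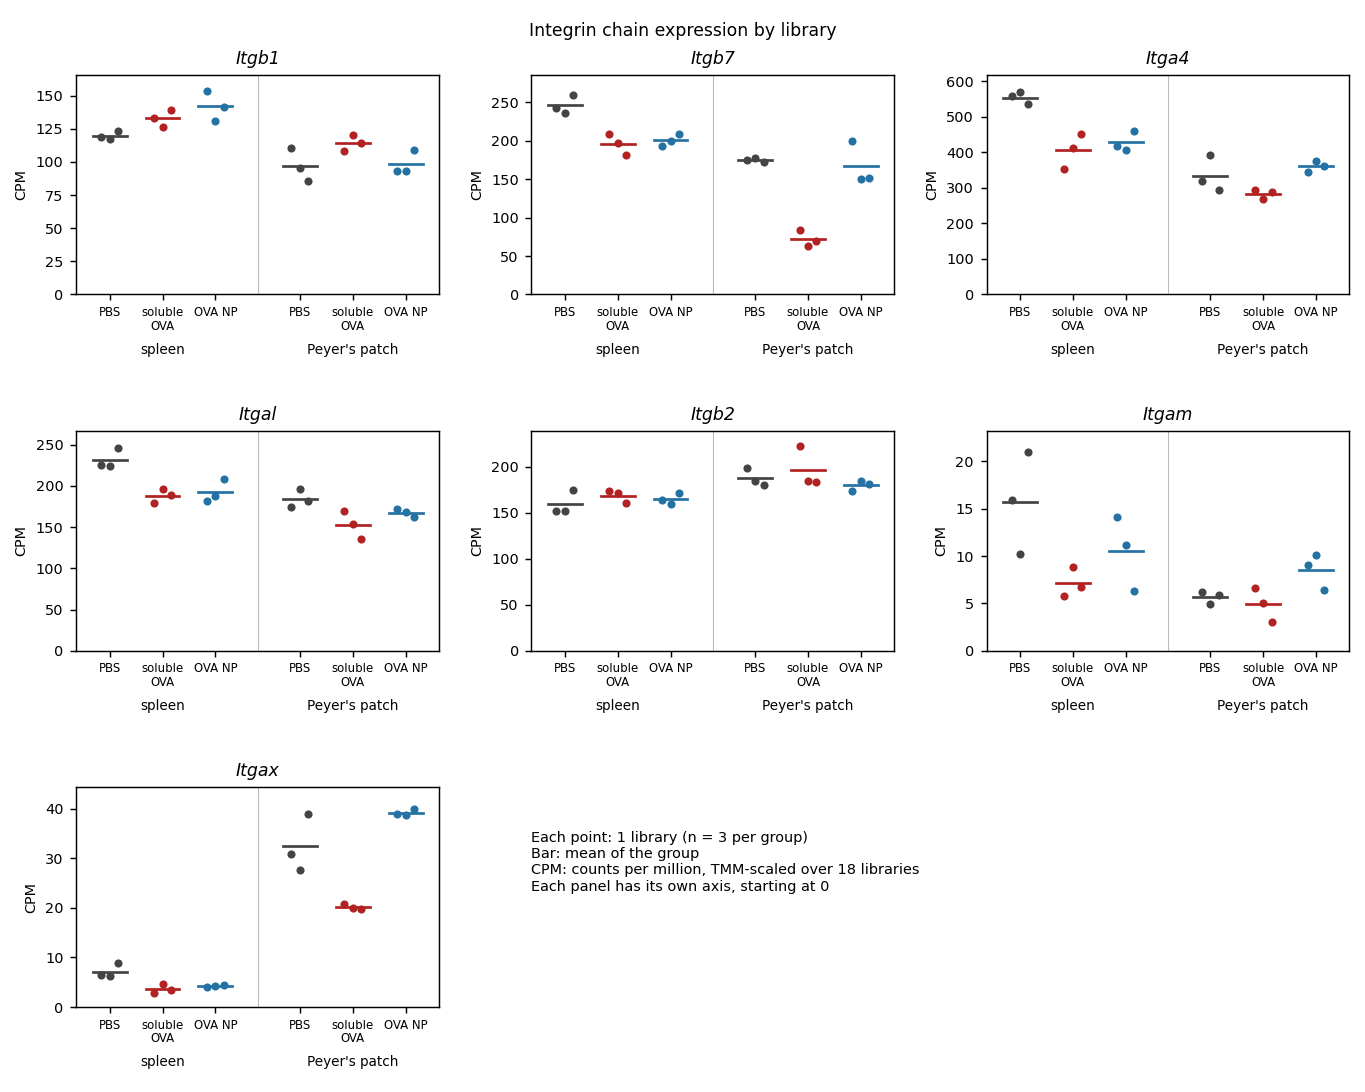
Level of each of the 7 integrin chains in every library, in CPM on a linear axis that starts at 0 in each panel, for spleen (left of the line) and Peyer's patches (right), with points for the 3 libraries of a group and a bar for their mean. *Itgb7* falls to 62.6–84.2 CPM in Peyer's patches after soluble OVA, and *Itgax* is at 19.7–40.0 CPM in Peyer's patches and 2.84–8.82 CPM in the spleen.

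*Itgb7* gave the largest response to a treatment of the 7 genes. Its level in Peyer's patches was 176, 178, and 173 CPM in the 3 PBS libraries and 84.2, 62.6, and 70.0 CPM after soluble OVA. The OVA NP libraries held 200, 151, and 152 CPM. The soluble OVA libraries lay below every other library of the study, and the OVA NP libraries fell on both sides of the PBS libraries. *Itgb7* fell after soluble OVA by 1.32 ± 0.10 on the log2 scale (SE, edgeR quasi-likelihood test, adjusted p = 8.22e-05). It was higher by 1.22 ± 0.15 with OVA NPs than with soluble OVA (adjusted p = 0.00125 by the same edgeR test). Against PBS, OVA NPs gave a difference of -0.09 ± 0.11 (adjusted p = 0.810 in edgeR), which was not called.

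In the spleen, the differences in *Itgb7* were smaller. The gene was at 243, 237, and 260 CPM with PBS, 209, 197, and 181 CPM with soluble OVA, and 193, 200, and 209 CPM with OVA NPs. The PBS libraries were above both treated groups, which overlapped. After OVA NPs *Itgb7* fell by 0.27 ± 0.05 on the log2 scale (edgeR adjusted p = 0.00284) and by 0.30 ± 0.07 with soluble OVA (edgeR adjusted p = 0.00622). Both lie close to the cutoff of 0.25, and the first drops under it without PBS replicate 3 (-0.23) and the second without soluble OVA replicate 3 (-0.24). In a fit to all 18 libraries the OVA NP difference was -0.27 with an adjusted p of 0.0898. The order of the *Itgb7* means ran from spleen PBS, through spleen OVA NP and spleen soluble OVA, which overlapped, to Peyer's patch PBS and OVA NP, which also overlapped, and last to Peyer's patch soluble OVA.

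Germinal center B cell markers moved in the same groups. Of 12 tested, 11 were called higher in Peyer's patches after soluble OVA, and their summed level was 3373–3565 CPM, against 1862–2216 CPM with PBS and 1448–2179 CPM with OVA NPs. In the spleen, 9 of 11 were called higher with OVA NPs and 12 of 12 with soluble OVA, with sums of 496.3–534.6 and 517.6–807.6 CPM against 135.3–233.8 CPM with PBS. Of the 10 marginal zone B cell markers, 6 were called lower in the spleen with OVA NPs and 7 with soluble OVA, and in Peyer's patches 7 were called lower with soluble OVA and 6 higher with OVA NPs than with soluble OVA. Against PBS in the spleen, 15.0% of all genes were called with OVA NPs and 17.2% with soluble OVA. In Peyer's patches the shares were 27.4% with soluble OVA against PBS and 30.1% with OVA NPs against soluble OVA. The part of these markers in the *Itgb7* result and in those of the other integrin chains was not tested.

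*Itga4*, the α partner of β7 and β1, fell in the spleen with both treatments. Splenic B cells held 558, 569, and 536 CPM with PBS, 354, 413, and 451 CPM with soluble OVA, and 417, 407, and 460 CPM with OVA NPs. Every PBS library was above every treated library. *Itga4* fell by 0.34 ± 0.06 with OVA NPs (edgeR adjusted p = 6.66e-04) and by 0.41 ± 0.09 with soluble OVA (edgeR adjusted p = 0.00454), and both calls held in every alternative that was run. Peyer's patch libraries held 318, 392, and 294 CPM with PBS, 294, 270, and 289 CPM with soluble OVA, and 344, 377, and 361 CPM with OVA NPs. *Itga4* was higher with OVA NPs than with soluble OVA, by 0.35 ± 0.08 (edgeR adjusted p = 0.00878), and those groups did not overlap. The difference between soluble OVA and PBS, -0.28 ± 0.10, did not pass (edgeR adjusted p = 0.0776) except in a fit to all 18 libraries (-0.26, adjusted p = 0.0474), and neither did that between OVA NPs and PBS, 0.09 ± 0.11 (edgeR adjusted p = 0.795).

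*Itgb1*, the other β partner of α4, moved the opposite way in the spleen. It was at 119, 117, and 123 CPM with PBS, 133, 127, and 139 CPM with soluble OVA, and 153, 131, and 142 CPM with OVA NPs. Both treated groups lay above PBS and overlapped each other. *Itgb1* rose by 0.28 ± 0.06 with OVA NPs (edgeR adjusted p = 0.00641). The difference with soluble OVA, 0.18 ± 0.06, had an adjusted p of 0.0367 in edgeR but stayed under the fold-change cutoff. Without OVA NP replicate 1 the first difference was 0.20, also under the cutoff, and in a fit to all 18 libraries it was 0.27 with an adjusted p of 0.0718. Levels in Peyer's patches ranged from 85.8 to 120.2 CPM, all 3 groups overlapped their neighbors, and no treatment difference passed in edgeR. Without OVA NP replicate 3, the difference between OVA NPs and soluble OVA there passed at -0.35 (adjusted p = 0.0213). Of 9 plasma cell markers tested in the spleen, 4 were called higher and 1 lower with each treatment, with sums over 10 markers of 969.2–1008 CPM with PBS, 1032–1137 CPM with soluble OVA, and 1109–1223 CPM with OVA NPs, and their part was not tested. Fold changes come from the 6 libraries of each comparison, scaled among themselves, and so differ slightly from ratios of the CPM values, which are scaled over all 18 libraries.

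The count of *Itgb7* per count of *Itgb1* within a library compares 2 β chains that pair with α4, without any scaling between libraries. These β chains also have other partners, such as αE for β7. The ratio therefore does not show how α4 is shared between them, and pairing of the proteins was not measured. The mean ratio was 2.06 ± 0.05 (SD, n = 3) in the spleen with PBS, 1.48 ± 0.15 with soluble OVA, and 1.42 ± 0.14 with OVA NPs. For Peyer's patches it was 1.82 ± 0.21 with PBS, 0.64 ± 0.13 with soluble OVA, and 1.72 ± 0.39 with OVA NPs. *Itgb7* thus had more counts than *Itgb1* in every library except the 3 of Peyer's patches after soluble OVA, where the ratio was 0.521 to 0.776. Averaged over the treatments, the log2 ratio differed between Peyer's patches and spleen by -0.39. This did not pass an exact two-sided permutation test within treatments (p = 0.0633, 8000 arrangements, smallest possible p = 0.00025). The average joins unlike differences. The mean ratio was lower in Peyer's patches with PBS (1.82 against 2.06) and soluble OVA (0.64 against 1.48). It was higher there with OVA NPs (1.72 against 1.42). The ratio is of counts, and the 2 genes differ in length, so a ratio of 1 does not stand for equal numbers of transcripts.

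**Figure D2:**
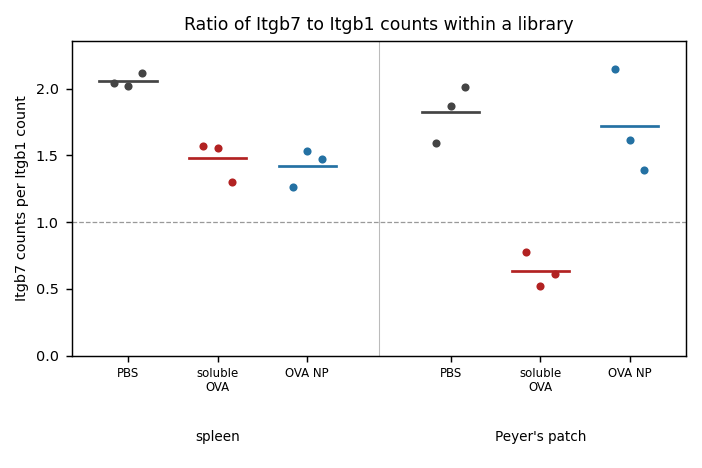
Counts of *Itgb7* per count of *Itgb1* in each library (points) with the group mean (bar), on a linear axis from 0, and a dashed line at 1. The 3 Peyer's patch libraries after soluble OVA are the ones under the line, at 0.521 to 0.776, and the spleen ratios are 2.02–2.11 with PBS and 1.26–1.57 with either treatment.

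*Itgal*, the α chain of LFA-1, resembled *Itga4* in the spleen. It was at 225, 224, and 246 CPM with PBS, 179, 197, and 189 CPM with soluble OVA, and 182, 188, and 208 CPM with OVA NPs. The PBS libraries were above both treated groups. *Itgal* fell by 0.26 ± 0.07 with soluble OVA (edgeR adjusted p = 0.0143), and this difference dropped under the cutoff without soluble OVA replicate 1 (-0.21, adjusted p = 0.0172) and without PBS replicate 3 (-0.21, adjusted p = 0.0738). With OVA NPs the difference was -0.23 ± 0.06 (edgeR adjusted p = 0.0107), past the p threshold but not the fold-change cutoff, which it passed with no filter (-0.25) and without PBS replicate 1 (-0.26), PBS replicate 2 (-0.26), or OVA NP replicate 3 (-0.28). Peyer's patch B cells had 175–197 CPM with PBS, 135–169 CPM with soluble OVA, and 162–172 CPM with OVA NPs. *Itgal* fell after soluble OVA by 0.31 ± 0.09 (edgeR adjusted p = 0.0231), but this call was lost without PBS replicate 2 (-0.23), PBS replicate 3 (-0.28), soluble OVA replicate 2 (-0.27), or soluble OVA replicate 3 (-0.18), with adjusted p from 0.0981 to 0.212, and with RLE normalization (adjusted p = 0.0512).

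*Itgb2*, the common β2 chain, was the steadiest of the 7 genes across treatments. It ranged from 152.1 to 174.9 CPM in the spleen and from 173.7 to 222.0 CPM in Peyer's patches, and neighboring groups in the order of means overlapped throughout. The treatment differences lay between -0.12 and 0.11 on the log2 scale, with SE of 0.06 to 0.09, and none passed (the smallest edgeR adjusted p was 0.280). A p above the threshold does not show that the groups were equal.

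*Itgax*, which encodes CD11c, fell in both tissues after soluble OVA. Its Peyer's patch level was 30.9, 27.7, and 38.9 CPM with PBS, 20.8, 19.9, and 19.7 CPM with soluble OVA, and 38.9, 38.7, and 40.0 CPM with OVA NPs. The soluble OVA libraries were below all others of the tissue. *Itgax* fell by 0.73 ± 0.13 against PBS (edgeR adjusted p = 0.00298) and was 0.97 ± 0.08 higher with OVA NPs than with soluble OVA (edgeR adjusted p = 2.98e-04), whereas OVA NPs against PBS gave 0.25 ± 0.12, which did not pass (edgeR adjusted p = 0.528). In the spleen the gene was at 6.43, 6.17, and 8.82 CPM with PBS, 2.84, 4.69, and 3.34 CPM with soluble OVA, and 4.03, 4.30, and 4.44 CPM with OVA NPs. *Itgax* fell there by 0.96 ± 0.22 with soluble OVA (edgeR adjusted p = 0.00752) and by 0.71 ± 0.18 with OVA NPs (edgeR adjusted p = 0.0114). Without PBS replicate 3, the highest of the group, the OVA NP difference was -0.53 with an adjusted p of 0.0672.

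*Itgam*, which encodes CD11b, was scarce and varied more among replicates. In the spleen it was at 15.9, 10.2, and 21.0 CPM with PBS, 5.80, 8.89, and 6.74 CPM with soluble OVA, and 14.1, 11.2, and 6.26 CPM with OVA NPs. The soluble OVA libraries were below all PBS libraries, and the OVA NP libraries overlapped both groups. *Itgam* fell by 1.11 ± 0.29 with soluble OVA (edgeR adjusted p = 0.0354). This call was lost without PBS replicate 1 (adjusted p = 0.0895), soluble OVA replicate 1 (0.212), or soluble OVA replicate 3 (0.144), and in the fit to the 9 spleen libraries (0.0868). The OVA NP difference of -0.55 ± 0.44 did not pass (edgeR adjusted p = 0.461). The Peyer's patch level of *Itgam* was 4.98–6.25 CPM with PBS, 3.05–6.66 CPM with soluble OVA, and 6.43–10.1 CPM with OVA NPs, and no treatment difference passed in edgeR. The difference between OVA NPs and soluble OVA there, 0.80 ± 0.30 (edgeR adjusted p = 0.0748), did pass in DESeq2 (0.79, adjusted p = 0.0313), with no filter (adjusted p = 0.0241), in the fit to the 9 Peyer's patch libraries (adjusted p = 0.0417), and without soluble OVA replicate 1 (1.09, adjusted p = 0.0313).

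Monocyte and macrophage markers changed in the same direction as *Itgam* and *Itgax* in the spleen. In Peyer's patches after soluble OVA, where *Itgax* fell, their sums overlapped those with PBS. Their median log2 fold change there was -0.48 over 18 tested markers, against -0.02 over all genes tested. Of all tested genes, 15.0% were called in the spleen with OVA NPs and 17.2% with soluble OVA. Among monocyte and macrophage markers there, 7 of 15 tested were called lower with OVA NPs and 8 of 14 with soluble OVA, with none called higher. Their summed level over 20 genes was 268.2–473.3 CPM with PBS, 142.3–208.5 CPM with soluble OVA, and 173.3–328.8 CPM with OVA NPs. The Peyer's patch sums were 309.2–427.5, 259.6–492.9, and 467.2–578.5 CPM in the same order, and 4 of 18 markers were called lower with soluble OVA than with PBS, in a comparison where 27.4% of all genes were called. With OVA NPs against soluble OVA there, 11 of 18 were called higher and 0 lower, with a median of 0.87, where 30.1% of all genes were called. The range of the soluble OVA sums in Peyer's patches was mostly that of *Ace*, which was at 55.7–260.9 CPM. *Csf1r* was at 10.2–15.9 CPM and *Lyz2* at 73.5–81.6 CPM in those libraries. By replicate, the monocyte and macrophage sums were 259.6, 492.9, and 365.9 CPM there. The sums of epithelial, stromal, and endothelial markers were 303.4, 784.6, and 738.9 CPM in the same order. Which cells the *Ace* RNA came from was not tested. *Csf1r* and *Lyz2*, defining monocyte and macrophage genes, were at 7.36 ± 2.60 and 37.4 ± 15.7 CPM or above in every group mean, and *C1qa* was at 0 in the spleen PBS and soluble OVA groups, as was *Cd300e* in Peyer's patches after soluble OVA. Among 12 dendritic cell markers, 1 of 10 tested was called lower and 0 higher with OVA NPs in the spleen. With soluble OVA in the spleen, 1 of 10 was called higher and 1 lower. In Peyer's patches, 1 of 11 was called lower and 0 higher with soluble OVA, with a median of -0.45. With OVA NPs against soluble OVA in Peyer's patches, 9 of 11 were called higher and 1 lower. *Dcstamp* was at 0 in all 3 spleen groups. The 6 spleen libraries with the highest marker sums were the 6 with the most *Itgam*, in the same order. The 10 neutrophil markers, another source of CD11b, summed to 45.9–142.1 CPM with PBS, 28.7–81.1 CPM with soluble OVA, and 35.3–147.2 CPM with OVA NPs in the spleen, where 0 of 6 tested were called in either comparison with PBS. The OVA NP spleen library with the least *Itgam* also had the lowest neutrophil sum of its group. The part of myeloid RNA in these results was not tested.

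**Figure D3:**
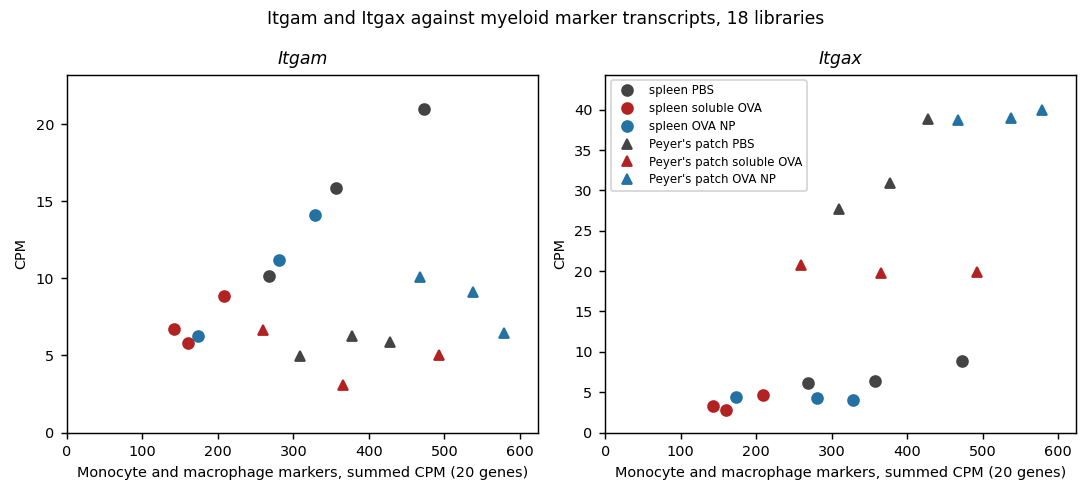
Level of *Itgam* (left) and *Itgax* (right) in CPM against the summed CPM of 20 monocyte and macrophage markers in each of the 18 libraries, with circles for spleen, triangles for Peyer's patches, and colors for treatment. Spleen *Itgam* runs from 5.80 to 21.0 CPM as the markers run from 142.3 to 473.3 CPM. *Itgax* is at 19.7–20.8 CPM in the Peyer's patch soluble OVA libraries, whose marker sums of 259.6–492.9 CPM vary mostly through *Ace* (55.7–260.9 CPM).

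Counted over the 7 genes, 4 were called with OVA NPs against PBS in the spleen (*Itgb1* higher, *Itgb7*, *Itga4*, and *Itgax* lower), where 15.0% of all tested genes were called. With soluble OVA against PBS in the spleen, 5 were called (*Itgb7*, *Itga4*, *Itgal*, *Itgam*, and *Itgax*, all lower), against 17.2% of all genes. Between OVA NPs and soluble OVA in the spleen 0 of 7 were called, by edgeR or DESeq2, 0 had an unadjusted p under 0.05, and 0.238% of all genes were called. In Peyer's patches 3 were called with soluble OVA against PBS (*Itgb7*, *Itgal*, and *Itgax*, lower), against 27.4% of all genes, and 3 with OVA NPs against soluble OVA (*Itgb7*, *Itga4*, and *Itgax*, higher), against 30.1%. With OVA NPs against PBS in Peyer's patches 0 of 7 were called by edgeR or DESeq2, and 0% of all genes were called in edgeR, while 1 of the 7 (*Itgam*, 0.56 ± 0.22) and 1573 of all 15798 genes had an unadjusted p under 0.05. The comparisons against PBS in a tissue share their PBS libraries, and those with soluble OVA share the soluble OVA libraries. These shares of 3 in 7 genes stand beside comparisons in which over 1 in 4 of all genes were called.

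**Figure D4:**
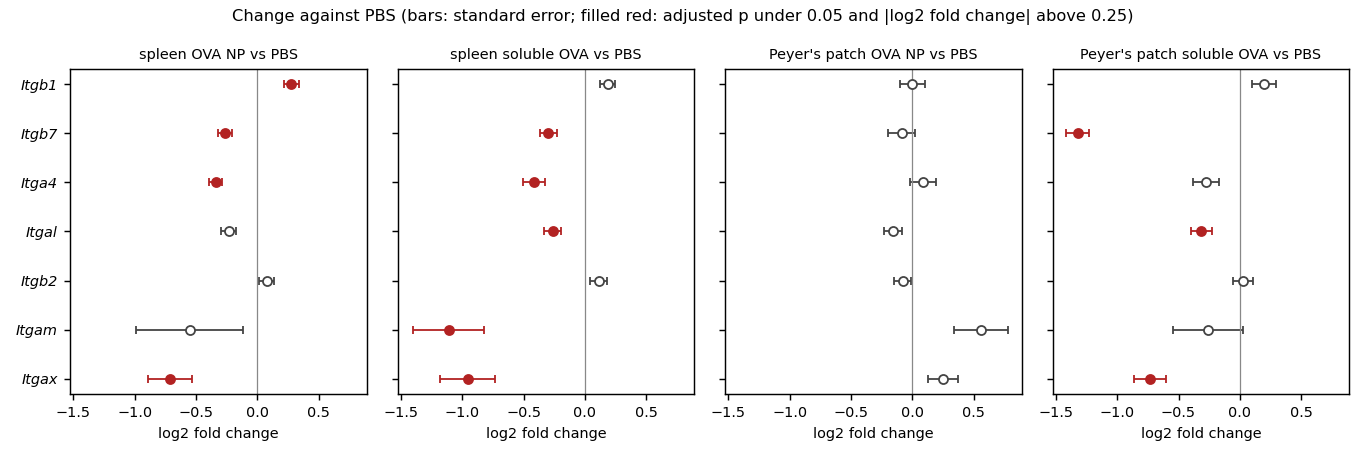
Log2 fold change against PBS of the 7 integrin chains for each treatment and tissue, with bars for the standard error and filled red points for genes that passed both cutoffs. *Itgb7* in Peyer's patches after soluble OVA, at -1.32, is the farthest from 0, and no gene passed with OVA NPs in Peyer's patches.

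An interaction term of treatment with tissue tested whether the effect of a treatment differed between the tissues. For soluble OVA against PBS, 1 of 7 genes passed, where 6.84% of all genes did. The *Itgb7* term, the change in Peyer's patches minus that in the spleen, was -1.02 ± 0.12 on the log2 scale (edgeR adjusted p = 1.91e-04), and this call held in every alternative that was run. For OVA NPs against PBS, 1 of 7 passed, where 4.42% of all genes did. This gene was *Itgax*, with an interaction of 0.97 ± 0.21 (edgeR adjusted p = 0.0170), since it fell in the spleen and was not called in Peyer's patches. Without spleen OVA NP replicate 1 its adjusted p was 0.0550. *Itga4* lay just outside the threshold, at 0.45 ± 0.12 (edgeR adjusted p = 0.0526), and passed in DESeq2 (adjusted p = 0.00493). In the same contrast, 4 of 19 monocyte and macrophage markers were called with a positive interaction and 11 of 12 germinal center markers with a negative one, and their part in the result was not tested.

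Between tissues, with treatment as a covariate and 9 libraries each, 6 of the 7 genes were called, where 52.7% of all genes were. *Itgax* was higher in Peyer's patches by 2.60 ± 0.14 on the log2 scale (edgeR adjusted p = 3.39e-11), with means of 5.01 CPM in the spleen and 30.6 CPM in Peyer's patches. Its 9 Peyer's patch libraries were above all 9 of the spleen, and the tissues did not overlap for 22.5% of all tested genes. The other 5 were lower in Peyer's patches. *Itgam*, its neighbor, differed by -0.78 ± 0.21 (edgeR adjusted p = 0.00382), with means of 11.1 CPM in the spleen and 6.38 CPM in Peyer's patches and overlapping libraries. The difference was -0.74 ± 0.14 for *Itgb7* (adjusted p = 2.07e-04), -0.51 ± 0.07 for *Itga4* (adjusted p = 3.45e-06), -0.36 ± 0.06 for *Itgb1* (adjusted p = 4.08e-05), and -0.30 ± 0.05 for *Itgal* (adjusted p = 1.39e-05) in the same edgeR test. *Itgb2* differed by 0.18 ± 0.05 (edgeR adjusted p = 0.00292), under the fold-change cutoff. Among PBS libraries alone, the *Itgb7* difference was -0.45 and the *Itgam* difference -1.41, and *Itgb2* passed at 0.27 (adjusted p = 0.0108). *Itgal* dropped under the cutoff, at -0.24, when genes needed at least 10 counts in every library. B cell markers also differed between tissues, with 9 of 10 called lower in Peyer's patches, while 7 of 11 dendritic cell markers were called higher and 2 lower there, 7 of 19 monocyte and macrophage markers higher and 5 lower, and 12 of 13 epithelial, stromal, and endothelial markers higher and 1 lower. Of 8 neutrophil markers, 2 were called higher and 6 lower in Peyer's patches, with sums of 2.21–21.7 CPM against 28.7–147.2 CPM in the spleen. Their part in the tissue differences was not tested.

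The genes whose pattern was most like that of each member were ranked by Pearson's r of log2 CPM over the 18 libraries, each centered on its tissue mean, among 12138 genes. For *Itgb7* they were *Cnn3* (r = 0.989), *Phf1* (0.987), and *Rin3* (0.985). For *Itga4* they were *Pikfyve* (0.954), *Tnrc6a* (0.943), and *Pgap1* (0.930), and for *Itgb1* they were *Neto2* (0.889), *Gspt1* (0.883), and *Tbc1d31* (0.865). For *Itgal* they were *Tgfbr2* (0.969), *Dock2* (0.958), and *Crybg1* (0.945), and for *Itgb2* they were *Ppp4c* (0.853), *Zmat5* (0.849), and *Laptm5* (0.838). *Itgam* was most like *Vsir* (0.867), *Tyrobp* (0.864), and *Trf* (0.854), and *Itgax* was most like *Grk3* (0.934), *Nectin1* (0.930), and *Ppfibp2* (0.925). These values describe libraries that share groups, depth, and scaling.

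Integrins work with ligands, with an inside-out activation machinery that includes talin, kindlins, and RAP1, and with chemoattractant receptors that guide the cell to where the integrin binds. In Peyer's patches after soluble OVA, 3 of 42 tested genes of activation and linkage were called higher and 14 lower, with a median of -0.19 on the log2 scale against -0.02 over all genes tested. Those named as higher were *Ptk2* (0.42), *Actn4* (0.33), and *Rap1a* (0.30), and those lower were *Cd9* (-1.36), a tetraspanin, *Actn1* (-0.97), which links integrins to actin, *Rap1gap2* (-0.93), which switches RAP1 off, and *Zyx* (-0.85), a focal adhesion protein. Of 21 homing and positioning genes, 3 were called higher and 14 lower, with a median of -0.77. *Ccr7* (-2.37), the receptor for the chemokines of the T cell zone, *Klf2* (-1.86), the factor that maintains the circulating state, and *Gpr183* (-1.71), the oxysterol receptor, were lower, and *Ackr4* (1.20), *S1pr2* (0.65), which holds B cells in germinal centers, and *Cd44* (0.33) were higher. *S1pr2* is also in the germinal center list, and *Cd9* is also in the marginal zone list. *Itgb7* and *Itgal* fell in the same comparison, where 27.4% of all tested genes were called, 2131 higher and 2189 lower.

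With OVA NPs in Peyer's patches, 0 genes of these lists were called against PBS. Against soluble OVA, 12 of 42 activation and linkage genes were higher and 7 lower, and 10 of 21 homing genes were higher and 3 lower. The homing genes named as higher were *Rarg* (1.53), *Klf2* (1.34), and *Aldh1a2* (1.31), which makes retinoic acid, and those lower were *Ackr4* (-1.40), *S1pr2* (-0.96), and *Cd44* (-0.33). For activation and linkage, *Actn1* (1.23), *Fyb* (1.20), an adaptor, *Cd9* (1.19), and *Rap1gap2* (1.13) were higher, and *Actn4* (-0.43), *Itgb1bp1* (-0.41), *Ptk2* (-0.36), and *Rap1a* (-0.34) were lower. The medians were 0.13 and 0.95, against 0.03 over all genes tested. Of all genes, 30.1% were called with OVA NPs against soluble OVA there.

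In the spleen with OVA NPs, 1 of 39 activation and linkage genes was called higher and 5 lower, and with soluble OVA 2 and 6, shares near the 15.0% and 17.2% of all genes called in those comparisons. *Actn1* (-0.59 and -0.75), *Filip1l* (-0.40 and -0.40), and *Cd9* (-0.39 and -0.54) were lower with OVA NPs and with soluble OVA, in that order, along with *Rassf5* (-0.29), a RAP1 effector, for OVA NPs and *Fyb* (-1.07) for soluble OVA. *Bcar1* (2.71) and *Rap1a* (0.35) were higher with soluble OVA, and the gene higher with OVA NPs was also *Bcar1* (1.83), named after its value was seen since it was under 1 CPM in both groups. Of 18 homing genes, 2 were higher and 7 lower with OVA NPs, and 4 and 7 with soluble OVA. *S1pr2* (2.72 and 3.00) and *Ackr4* (2.51 and 3.04) were higher and *Klf2* (-0.49 and -0.52), *Rara* (-0.49 and -0.70), a retinoic acid receptor, and *Cxcr5* (-0.38 and -0.41), the follicle homing receptor, were lower with both. *S1pr1* (-0.41), which guides exit into blood, was named as lower with OVA NPs, and *Ccr7* (-0.52) with soluble OVA, where *Cxcr3* (1.36) and *Gpr183* (0.35) were higher. Between OVA NPs and soluble OVA in the spleen, 0 genes of these lists were called.

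**Figure D5:**
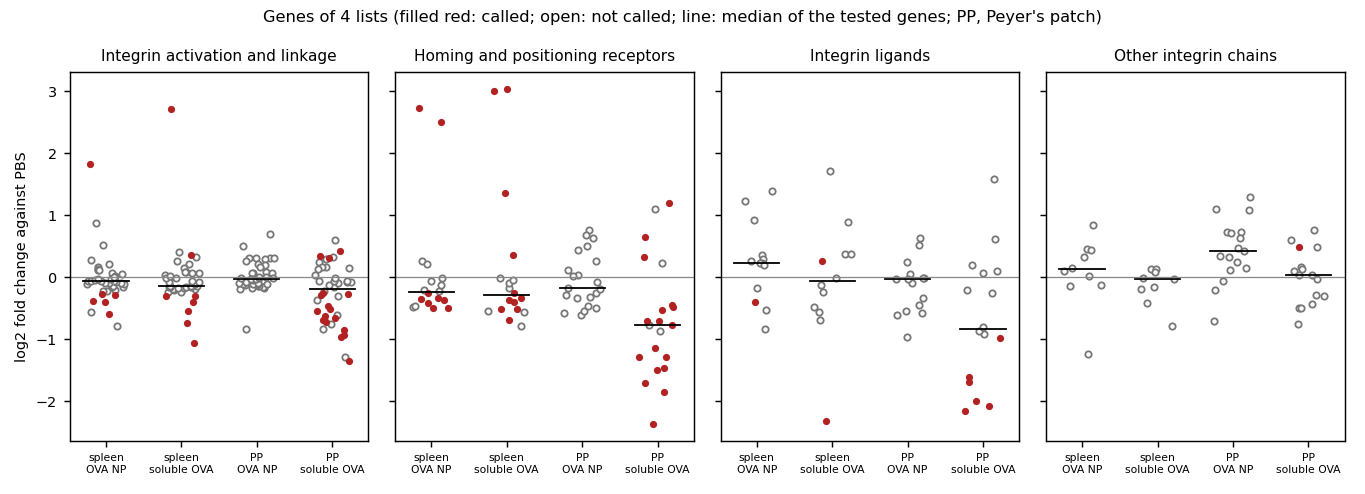
Log2 fold change against PBS of every tested gene in 4 lists (integrin activation and linkage, homing and positioning receptors, integrin ligands, other integrin chains) for each tissue and treatment, with filled red points for called genes, open points for the others, and a line at the median. The medians of homing receptors and ligands are lowest in Peyer's patches after soluble OVA, at -0.77 and -0.84, and no gene of the lists is called with OVA NPs in Peyer's patches.

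Among integrin ligands, *Fcer2a* encodes CD23, the low-affinity IgE receptor of B cells and a counter-receptor of CD11b and CD11c. It was at 1137 ± 50.4 CPM (SD, n = 3) in the spleen with PBS, 941.7 ± 71.2 with soluble OVA, and 845.6 ± 108 with OVA NPs, and it was the 1 ligand of 13 tested that was called lower with OVA NPs (-0.40 ± 0.07, edgeR adjusted p = 0.00170). The Peyer's patch level of *Fcer2a* was 842.3 ± 54.2 CPM with PBS, 285.1 ± 55.2 with soluble OVA, and 675.7 ± 60.4 with OVA NPs, and the fall after soluble OVA was 1.61 ± 0.12, a value named after it was seen (edgeR adjusted p = 9.00e-05). That group had 6 of 16 ligands lower and 0 higher, among them *Thbs1* (-2.16), *Jam2* (-2.08), *Fn1* (-2.00), which encodes fibronectin, and *C3* (-1.69). The share of all genes called there was 27.4%. *Icam1*, the LFA-1 ligand, was called higher in the spleen with soluble OVA (0.26 ± 0.07, edgeR adjusted p = 0.0173), and *Fn1* lower (-2.32). With OVA NPs against soluble OVA in Peyer's patches, 4 of 16 ligands were called higher and 0 lower, where 30.1% of all genes were called. They were *Fn1* (1.97), *Thbs1* (1.56), *Thy1* (1.53), which is also in the T cell list, and *Fcer2a* (1.25). Between tissues, 11 of 17 ligands were higher and 5 lower in Peyer's patches. *Madcam1*, the α4β7 ligand of vessels, was at 1.87 CPM there and 0.0348 CPM in the spleen, and like *Cdh1* (5.53), the E-cadherin that αEβ7 binds, it is a marker of non-B cells. *Fcer2a* was lower by 0.84 ± 0.18 on the log2 scale.

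Among 20 integrin chains outside the 7, 0 of 10 were called in the spleen with OVA NPs and 0 of 9 with soluble OVA. With soluble OVA 1 of 16 was called in Peyer's patches, *Itga6* (0.48), a laminin receptor chain, where 27.4% of all genes were called. With OVA NPs against soluble OVA there, 4 of 17 were higher and 1 lower, with *Itgae* (1.21), the αE partner of β7, *Itga5* (1.11), and *Itga1* (0.97) named as higher and *Itga6* (-0.38) as lower, and the remaining gene, *Itgad* (2.14), named after its value was seen since it was under 1 CPM in both groups. In that comparison 30.1% of all genes were called. There, 8 of 13 T cell markers were called higher and 1 lower (median 1.45), with sums of 152.5–167.6 CPM against 171.6–195.9 CPM. Of 8 NK cell markers, 3 were called higher. Between tissues, 11 of 16 integrin chains were higher in Peyer's patches, led by *Itgb4* (5.44), an epithelial chain, *Itgae* (5.25), *Itga9* (2.82), and *Itgb5* (2.36), and 1 was lower, *Itga5* (-1.51). The median was 1.70, against -0.01 over all genes tested. T cell markers, of which 11 of 12 were called higher in Peyer's patches, and the epithelial and stromal markers described above moved the same way, and their part was not tested.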

How the data were processed

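Bulk RNA-Seq of magnetically enriched B cells was analyzed in 18 libraries. Per the methods, the authors prepared poly(A)-selected libraries, sequenced them paired-end, used Cutadapt 2.3 for trimming and STAR 2.7.8a for mapping (GRCm38), and deposited RSEM 1.3.3 expected counts, which are not normalized. All deposited values were whole numbers, so rounding changed nothing.

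Genes passing filterByExpr (minimum count 10, minimum total 15) were tested with edgeR 4.0.16 in R 4.3.3 (TMM, robust quasi-likelihood F test, Benjamini-Hochberg adjustment over all tested genes). As in the study's methods, calls needed an adjusted p under 0.05 together with a log2 fold change over 0.25 in size, and interactions needed the adjusted p alone. Each comparison within a tissue used its 6 libraries, the tissue comparison used 18 with treatment as a covariate, and interactions used 12. The SE was derived from the F statistic. The edgeR p-values set each difference against the spread between the labeled replicates, which the model estimates with information shared over all genes. Alternatives were DESeq2 1.42.0 (the authors' tool), RLE normalization, other filters, other sets of libraries, a replicate block, and leaving out each library. The fits were tested on simulated data.

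The members, lists, and alternatives were chosen with earlier results of these data known. In each of 4 lists (20 other chains, 20 ligands, 43 activation and linkage genes, 22 homing genes, of which 21 are in the table), up to 4 called genes per direction with the largest absolute log2 fold change and a mean of at least 1 CPM in 1 group are named; 1 gene that this rule gives is not reported here. Positions and exon lengths are from GENCODE M21 (GRCm38), whose release differs from the authors' Ensembl annotation. A search of protein sequences was not run.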

Additional observations from a re-analysis of the deposited data

Results flagged for a closer look

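For 2 results, the effect of a treatment differed between the tissues by the interaction test in edgeR. The first was *Itgb7* after soluble OVA, with an interaction of -1.02 on the log2 scale (adjusted p = 1.91e-04): the fall was 1.32 in Peyer's patches and 0.30 in the spleen. The gene was lower in 3 of 3 soluble OVA libraries than in any PBS library in both tissues. These groups did not overlap for 44.8% of all tested genes in Peyer's patches and 38.3% in the spleen. The second was *Itgax* after OVA NPs, with an interaction of 0.97 (adjusted p = 0.0170). The change was -0.71 in the spleen, where 3 of 3 libraries were below every PBS library and 36.9% of all tested genes did not overlap. It was 0.25 in Peyer's patches, where it did not pass and 1 PBS library lay among the OVA NP libraries.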

How the results depend on the processing

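Counts of called integrin chains stayed within 1.5 times their value under most alternatives. With OVA NPs in the spleen, 4 were called, 2 in a fit to all 18 libraries and 2 to 5 when 1 library was left out. With soluble OVA in the spleen, 5 were called, and 3 to 5 when 1 library was left out. For the interaction with OVA NPs, 1 was called, and 2 (*Itgax* and *Itga4*) were called with DESeq2, RLE normalization, no filter, at least 10 counts in every library, and the replicate block, with 0 to 2 when 1 library was left out. The *Itgb7* to *Itgb1* ratio between tissues ran from -0.44 to -0.34 when 1 library was left out, and passed without spleen OVA NP replicate 1 (permutation p = 0.0483) and without Peyer's patch OVA NP replicate 1 (permutation p = 0.0288). Among values near 0, *Itgb1* turned to -0.0112 for OVA NPs in Peyer's patches in a fit to 18 libraries and to -0.00191 for the soluble OVA interaction with at least 10 counts in every library. When 1 library was left out, these uncalled differences also changed sign: between OVA NPs and soluble OVA in the spleen, *Itga4* (-0.0353 to 0.163), *Itgal* (-0.0253 to 0.0838), and *Itgb7* (-0.00906 to 0.0616), for OVA NPs in Peyer's patches *Itgb1* (-0.0781 to 0.106), for soluble OVA in Peyer's patches *Itgb2* (-0.0290 to 0.129) and *Itgam* (-0.502 to 0.0445), and for the soluble OVA interaction *Itgal* (-0.103 to 0.0904), *Itgb1* (-0.0669 to 0.124), and *Itgb2* (-0.155 to 0.0245). Of 9 same-numbered pairs across tissues 3 had a residual correlation over 0.1 (-0.17 to 0.17), and of 18 same-numbered pairs within a tissue 4 did (-0.50 to 0.30). Differently numbered libraries were not compared, so this cannot decide whether spleen and Peyer's patch libraries came from the same mice. The main tests treated all libraries as independent. With the replicate block, *Itgam* in the spleen (adjusted p = 0.112) and *Itgal* in Peyer's patches (adjusted p = 0.108) with soluble OVA were no longer called, and *Itga4* passed in the OVA NP interaction (adjusted p = 0.0467). Low depth limits *Itgam* and *Itgax*, which had as few as 69 and 63 counts in a library.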
